A study of Mus musculus with 16 samples.

Results

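The 55 genes described here encode matrix proteins other than collagens, together with enzymes that process, crosslink or cut the extracellular matrix. They were chosen by gene symbol from a list made with earlier results of these data known. Shares set against all genes are therefore descriptive only. All 55 of the listed symbols were among the 11710 genes of the deposited count table. All 55 also passed the filter on low counts. RNA of mouse rotator cuff muscle was sequenced in 16 samples that fall into 4 groups of 4: strain C57BL/6J (BL6) or strain MRL/MpJ (MRL), each either left unoperated or given a tenectomy together with denervation. The sample labels name the supraspinatus and the series description the infraspinatus, so the tissue is called rotator cuff muscle. The cut tendon and the lost nerve supply come together in both operated groups, so their effects cannot be told apart. Time after surgery, age and sex are not given in the sources used here. The labels number the replicates without saying that they are separate animals, so a p-value measures only the spread between these samples, which may be technical. Levels are given in CPM (a gene's reads among each 1000000 reads counted for that sample, with library totals scaled by TMM, edgeR's correction for composition). A gene was called where its adjusted p in edgeR's quasi-likelihood test, with Benjamini-Hochberg adjustment over all 11709 genes tested, was under 0.05.

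The extracellular matrix of skeletal muscle surrounds each fibre with a basement membrane of laminins, nidogens and perlecan, and joins fibres and bundles with an interstitial network of collagen and elastic fibres. Fibroblasts and fibro-adipogenic progenitors make most of the interstitial matrix. Matricellular proteins such as tenascin C and periostin are made at low levels in resting muscle and at higher ones during repair, and small leucine-rich proteoglycans set the width of collagen fibrils. Lysyl oxidases crosslink collagen and elastin, while metalloproteinases and their tissue inhibitors govern turnover. In bulk samples, a change in the number of cells of one type and a change in RNA per cell cannot be told apart.

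Total counts ranged from 24323862 to 43552964 per sample, so 3 counts, the floor used here, corresponded to 0.0689 to 0.123 CPM. The 4 operated BL6 samples each had fewer counts than the unoperated BL6 samples. All 7 muscle fibre markers were counted, at a summed 50000 to 129000 CPM. The summed level of the 55 genes took 0.259% to 0.425% of the counts in unoperated BL6 and 0.339% to 0.497% in unoperated MRL. In operated MRL it took 0.538% to 0.807%. In operated BL6, replicate 4 stood apart with 1.36%, against 0.432% to 0.621% in the other 3. That sample had the highest level of its group for 50 of the 55 genes, while 36.1% of all genes were highest there. It also had the highest summed leukocyte markers of its group (9 of 9 counted), 564 CPM against 88.7 to 167. Tendon cell markers (4 of 5 counted, with Mkx not analysed here) summed to 117 CPM there against 31.3 to 63.1. Cartilage and bone cell markers (4 of 6 counted, with Col2a1 and Sox9 not analysed here) summed to 39.9 CPM against 1.39 to 8.27, and muscle fibre markers to 50000 CPM against 75100 to 129000. Unoperated MRL replicate 1 was highest of its group for 46 of the 55 genes (36.5% of all genes), with leukocyte markers at 348 CPM against 78.4 to 101. Unoperated BL6 replicate 1 was highest for 48 (34% of all genes), with leukocyte markers at 147 CPM against 39.5 to 59.9. Operated MRL replicate 3 was highest for 35 (24.9% of all genes), but leukocyte markers were highest in replicate 4, at 249 CPM against 231 in replicate 3. Tendon cell markers were also highest of their group in these 3 samples. They summed to 56.2 CPM against 25.8 to 31.8, 25.7 CPM against 19.3 to 21.5 and 84 CPM against 40.9 to 53.8. In every group, fibroblast and fibro-adipogenic progenitor markers (8 of 8 counted) peaked in the sample that was highest for most of the 55 genes. They summed to 1930 CPM there in unoperated BL6 (956 to 1400 in the other samples) and 2690 CPM in operated BL6 (1320 to 1930). In MRL they summed to 2030 CPM unoperated (1560 to 1690) and 2470 CPM operated (1410 to 2050). The part of these cell type markers in the results was not tested. Values without operated BL6 replicate 4 are given where it changed a call or moved a called log2 fold change by more than 1.5 times.

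Some of the genes that rose after surgery, or that separated the strains, are introduced here by the promoter sequence just before their start. RefSeq promoters (GRCm38.p6) were matched for 37 of the 55 genes, and 250 bases before each start were searched on both strands for 5 motifs. Not every matched promoter held a motif: those of Bgn, Fmod and Mmp14, among others, held none of the 5. Those shown are of Lrrc15 and Postn, which rose after surgery in BL6, and of Thbs4 and Adamtsl2, which rose in both strains. Also shown are those of Cyr61, higher in unoperated MRL than in unoperated BL6, and Adamts1, higher in operated MRL than in operated BL6. Every promoter shown holds at least 1 match, and the stretch is 250 bases for Thbs4 and 150 for the others. Each is printed 5′ to 3′ on the strand of its gene, in lower case, with the motif matches in capitals.
Lrrc15: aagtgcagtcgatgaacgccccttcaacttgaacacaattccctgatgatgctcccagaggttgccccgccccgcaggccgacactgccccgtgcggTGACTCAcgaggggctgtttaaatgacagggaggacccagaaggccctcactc
Postn: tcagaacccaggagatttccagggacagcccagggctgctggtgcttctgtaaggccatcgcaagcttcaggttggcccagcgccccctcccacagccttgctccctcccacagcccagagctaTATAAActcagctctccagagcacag
Thbs4: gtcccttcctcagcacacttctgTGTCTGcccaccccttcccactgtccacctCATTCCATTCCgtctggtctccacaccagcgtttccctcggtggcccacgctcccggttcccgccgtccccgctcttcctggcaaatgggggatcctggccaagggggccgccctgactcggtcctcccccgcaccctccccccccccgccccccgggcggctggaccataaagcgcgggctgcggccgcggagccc
Cyr61: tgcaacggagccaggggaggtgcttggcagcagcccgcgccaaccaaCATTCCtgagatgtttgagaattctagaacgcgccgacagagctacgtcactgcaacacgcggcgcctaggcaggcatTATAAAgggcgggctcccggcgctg
Adamts1: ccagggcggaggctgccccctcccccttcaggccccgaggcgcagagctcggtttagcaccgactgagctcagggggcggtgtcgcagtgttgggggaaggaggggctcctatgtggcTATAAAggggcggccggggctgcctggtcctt
Adamtsl2: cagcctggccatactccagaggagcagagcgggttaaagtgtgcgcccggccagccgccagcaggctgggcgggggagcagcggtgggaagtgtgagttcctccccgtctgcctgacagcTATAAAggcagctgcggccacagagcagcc
The Lrrc15 stretch (chr16:30283255-30283404, minus strand) has in capitals the AP-1 motif TGAGTCA on its other strand, 53 bases before the start. Postn (chr3:54360957-54361106, plus strand), Adamts1 (chr16:85803114-85803263, minus strand) and Adamtsl2 (chr2:27079229-27079378, plus strand) carry the TATA box letters TATAAA, 26, 32 and 30 bases before the start. Cyr61 (chr3:145649986-145650135, minus strand) carries TATAAA 25 bases before the start and, on its other strand, the TEAD motif GGAATG 103 bases before it. In Thbs4 (chr13:92794819-92795068, minus strand) a pair of TEAD matches, 197 and 192 bases before the start, overlap each other, and the SMAD motif CAGACA lies on the other strand, 227 bases before it. TATAAA was present in 8 of the 37 matched promoters and in 12.4% of all 32851 promoters of that length. GGAATG was present in 6 of 37 against 12.6% of all, CAGACA in 8 of 37 against 17.1%, TGAGTCA in 2 of 37 against 4.46%, and the CArG box in 1 of 37 (Lama2) against 1.47%. The matched RefSeq start of Lama2 lay 2816 bases from the gene's start in the GENCODE annotation. For Sparc, Pcolce and Fbn1 the distance was 3103, 2380 and 1555 bases. A match is a description of the letters, and no factor's binding was measured.

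Surgery in BL6 was followed by a higher level of 40 of the 55 genes and a lower level of 0 (72.7% higher, where 35.1% of all genes tested were called higher and 67.9% were called in either direction). The median log2 fold change was 1.23 over the 55 genes and 0.04 over all genes. Of the 40, 31 were called at a log2 fold change of at least 1, and in 23 of the 55 every operated BL6 sample lay above every unoperated one (27.5% of all genes). In MRL, 17 of the 55 were called higher and 0 lower (22.3% of all genes were called higher, 45% in either direction), with a median log2 fold change of 0.75 against 0.01 over all genes. The groups did not overlap for 20 genes in MRL, all higher after surgery (17% of all genes). The 17 called in MRL were all among the 40 called in BL6, another 23 were called in BL6 without being called in MRL, and 15 were called in neither strain. Of all 11709 genes tested, 4783 were called in both strains, 3167 in BL6 only, 489 in MRL only and 3270 in neither. The authors' deposited table called 36 of the 55 in BL6 (35 higher, with Lama2 lower) and 39 in MRL, all higher. Its column names give the groups compared without the samples or settings of the fit. Its log2 fold changes also differed from those here, as for Tnc, at 2.50 in BL6 and 2.42 in MRL against 3.69 and 1.52 here. In MRL the count of calls turned on single samples. It was 10 without operated MRL replicate 3 (where 29.8% of all genes were called), 11 without unoperated MRL replicate 4 (34.9%) and 28 without operated BL6 replicate 4 (51.3%). Calls of Ctgf, Bgn, Hspg2, Mfap2, Lama4 and Timp1 were lost in both of the first cases, and that of Thbs4 in the first. The count was 32 in a fit on the 8 MRL samples alone, where 44.7% of all genes were called. Without operated BL6 replicate 4, the count in BL6 was 32 (31 higher, with Lama2 lower), the median log2 fold change 0.65, and 31.8% of all genes were called higher.

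**Figure D1:**
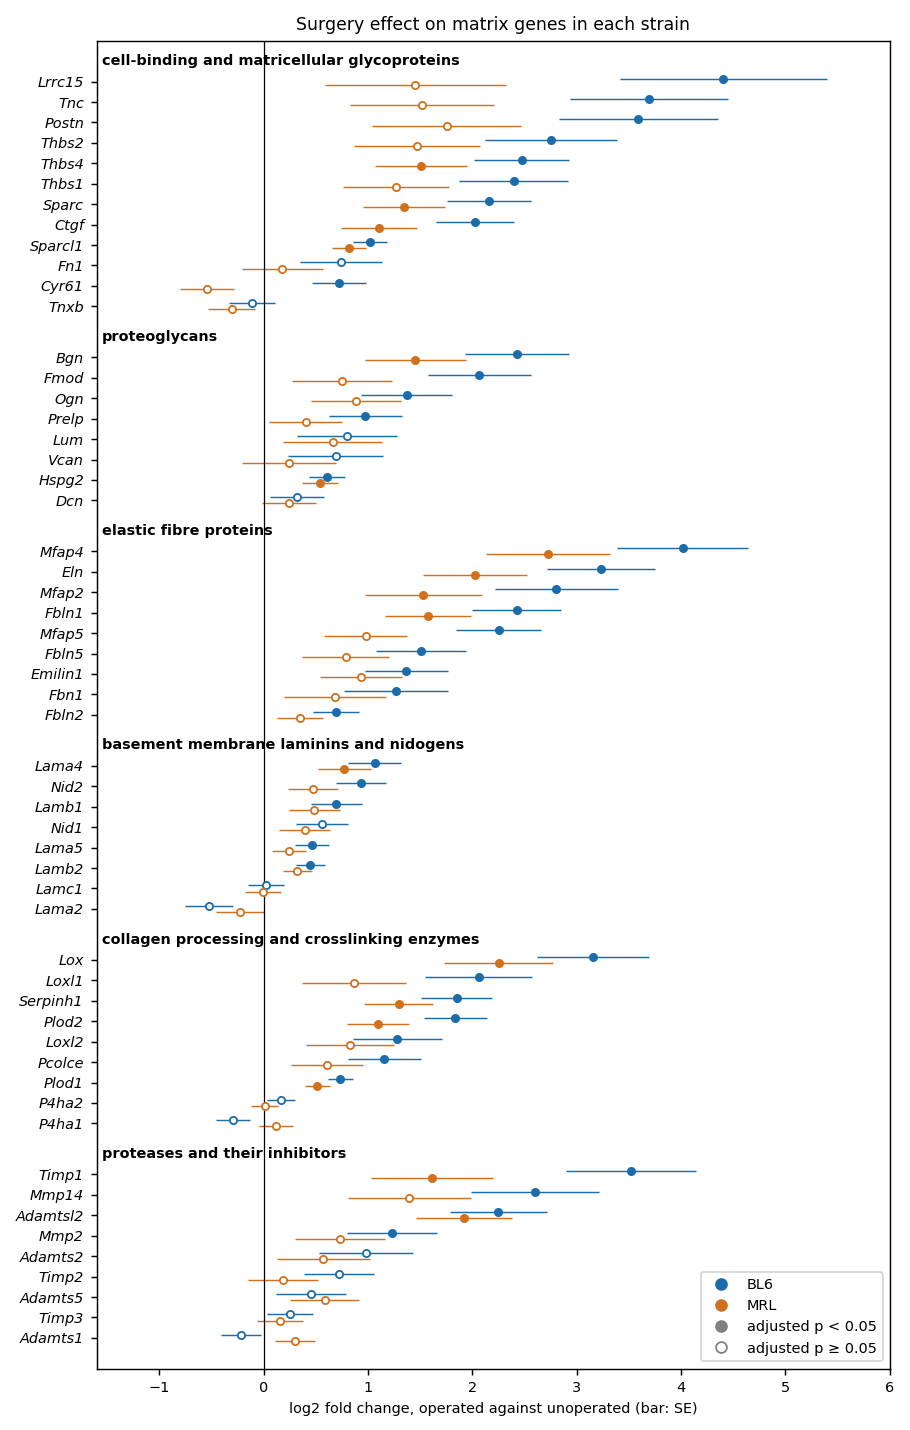
Log2 fold change of surgery (operated against unoperated) of each of the 55 genes, by role, in BL6 and in MRL, with bars for the standard error of edgeR's fit and filled points for called genes. Of the 55 genes, 40 are filled in BL6 and 17 in MRL, all to the right of 0.

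The first role group holds 12 glycoproteins that bind cells or act as matricellular signals. In BL6, 10 of the 12 rose (83.3%, against 35.1% of all genes), with a group median log2 fold change of 2.28. In MRL 4 rose (33.3%, against 22.3% of all genes), with a median of 1.31. These were Sparc, Sparcl1, Thbs4 and Ctgf. Fn1 and Tnxb were called in neither strain.

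Lrrc15, a leucine-rich membrane protein of activated fibroblasts (ENSMUSG00000052316, chromosome 16, 30269302 to 30283256, GRCm38), had the largest BL6 log2 fold change of the 55 genes. It was at 0.391, 0.718, 1.22 and 0.514 CPM in unoperated BL6 and at 3.47, 2.63, 9.88 and 44.5 CPM in operated BL6. In MRL it was at 6.36, 0.307, 2.55 and 1.84 CPM without surgery and 5.24, 1.98, 10.7 and 12.1 CPM with it. All 4 operated BL6 samples lay above the unoperated ones, whereas the MRL groups overlapped, with unoperated replicate 1 above operated replicates 1 and 2. The log2 fold change was 4.41 (SE 0.99, edgeR adjusted p = 0.00126) in BL6 and 1.45 (SE 0.87, edgeR adjusted p = 0.177) in MRL, and 2.89 (adjusted p = 0.00602) in BL6 without operated replicate 4.

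Tnc, which encodes tenascin C, a protein of tendon and of injured tissue (ENSMUSG00000028364, chromosome 4, 63959785 to 64047015), was at 3.18, 3.21, 2.85 and 2.38 CPM in unoperated BL6 and 16.7, 9.96, 19.3 and 104 CPM in operated BL6. MRL values were 22.4, 3.86, 6.51 and 6.53 CPM unoperated and 19.2, 10.1, 47.2 and 35.6 CPM operated. In BL6 the groups stood well apart with operated replicate 4 the highest, and in MRL unoperated replicate 1 lay among the operated samples. Tnc rose by 3.69 (SE 0.76, edgeR adjusted p = 0.000634) on the log2 scale in BL6, and its value in MRL was 1.52 (SE 0.69, edgeR adjusted p = 0.0818). Postn, encoding periostin, a matricellular protein that promotes collagen crosslinking (ENSMUSG00000027750, chromosome 3, 54361109 to 54391037), had the same layout. Its BL6 levels were 19.2, 15.4, 14.7 and 10.9 CPM unoperated and 75.5, 44.1, 78.7 and 526 CPM operated, and its MRL levels 61.1, 12.6, 23.8 and 23.2 CPM and 64.5, 33.5, 156 and 152 CPM. The BL6 groups did not overlap and the MRL groups did, with log2 fold changes of 3.59 (SE 0.76, edgeR adjusted p = 0.000829) and 1.75 (SE 0.71, edgeR adjusted p = 0.055). Postn was called in MRL without operated BL6 replicate 2, unoperated MRL replicate 1 or operated MRL replicate 2, and Tnc without unoperated MRL replicate 1. Without operated BL6 replicate 4 the BL6 change was 2.39 (adjusted p = 0.00208) for Tnc and 2.13 (adjusted p = 0.00279) for Postn. Both were then also called in MRL, with nearly the same log2 fold changes and smaller standard errors, at 1.52 (adjusted p = 0.0212) and 1.76 (adjusted p = 0.00889).

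Sparc, encoding a collagen-binding protein also called osteonectin (ENSMUSG00000018593, chromosome 11, 55394500 to 55423183), was at 508, 298, 262 and 248 CPM in unoperated BL6 and 1054, 773, 999 and 3044 CPM in operated BL6. In MRL the levels were 802, 448, 386 and 385 CPM and 1184, 1026, 1541 and 1378 CPM. Every operated sample exceeded every unoperated sample of its strain. Sparc rose in both strains, by 2.16 (SE 0.40, edgeR adjusted p = 0.000299) in BL6 and 1.34 (SE 0.39, edgeR adjusted p = 0.013) in MRL on the log2 scale. Its relative Sparcl1 rose by 1.02 (SE 0.17, edgeR adjusted p = 0.000119) in BL6 and 0.82 (SE 0.17, edgeR adjusted p = 0.00239) in MRL, again without overlap in either strain. Fibronectin, encoded by Fn1, is a scaffold on which other matrix proteins assemble. Fn1 was at 111, 66.3, 48.5 and 46.4 CPM in unoperated BL6 and 81.05, 58.6, 69.2 and 246 CPM in operated BL6, where replicate 4 alone lay above all unoperated samples. Its MRL levels were 91.1, 69.4, 71.9 and 68.2 CPM unoperated and 69.2, 64.3, 104 and 103 CPM operated, and the groups overlapped. The log2 fold change of Fn1 was 0.74 (SE 0.39, edgeR adjusted p = 0.104) in BL6 and 0.18 (SE 0.39, edgeR adjusted p = 0.72) in MRL, and 0.03 (adjusted p = 0.933) in BL6 without operated replicate 4. It was called in BL6 without unoperated BL6 replicate 1, at 1.09, and without operated BL6 replicate 2.

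The thrombospondins, adhesive glycoproteins of which thrombospondin 1 can activate latent TGF-beta, rose in BL6 in all 3 cases. The log2 fold changes there were 2.39 (SE 0.53, adjusted p = 0.00104) for Thbs1, 2.75 (SE 0.63, adjusted p = 0.00144) for Thbs2 and 2.47 (SE 0.45, adjusted p = 0.000268) for Thbs4, all by edgeR. In MRL with all samples, Thbs4, a thrombospondin of tendon and muscle attachment, was called at 1.51 (SE 0.44, edgeR adjusted p = 0.0129), and Thbs1 and Thbs2 were at 1.27 (SE 0.51, adjusted p = 0.0521) and 1.47 (SE 0.60, adjusted p = 0.0571). With operated BL6 replicate 4 left out, the BL6 values were 1.56 (adjusted p = 0.00412) for Thbs1 and 1.48 (adjusted p = 0.00592) for Thbs2, and both were then called in MRL, at 1.28 (adjusted p = 0.0119) and 1.48 (adjusted p = 0.00596). Tnxb, which encodes tenascin X, did not pass the test, with log2 fold changes of -0.11 in BL6 and -0.31 in MRL.

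Ctgf and Cyr61 encode CCN proteins, secreted matricellular factors whose genes are well-known targets of the YAP and TEAD regulators. Ctgf was at 44.7, 34.6, 44.2 and 35.4 CPM in unoperated BL6 and 134, 107, 83.8 and 323 CPM in operated BL6. Its levels in MRL were 49.2, 38.3, 44.4 and 43.8 CPM unoperated and 56.7, 61.6, 135 and 124 CPM operated. The groups did not overlap in either strain, and in MRL operated replicates 3 and 4 were well above replicates 1 and 2. Ctgf rose by 2.03 (SE 0.37, edgeR adjusted p = 0.000265) in BL6 and by 1.10 (SE 0.36, edgeR adjusted p = 0.0227) in MRL, where the call was lost without unoperated replicate 2, 3 or 4 or operated replicate 3 or 4. Cyr61 went another way. Its levels were 36.7, 55.6, 43.3 and 43.6 CPM in unoperated BL6 and 73.02, 54.97, 65.2 and 102 CPM in operated BL6, with 87.02, 178, 80.5 and 73.5 CPM and 70.7, 69.99, 58.4 and 89.1 CPM for the same states of MRL. Unoperated MRL samples all lay above unoperated BL6 samples, with replicate 2 the highest, and after surgery the strains overlapped. Surgery gave a log2 fold change of 0.72 (SE 0.26, edgeR adjusted p = 0.0227) in BL6 and -0.54 (SE 0.26, edgeR adjusted p = 0.0981) in MRL. The call in BL6 was lost without operated replicate 4, at 0.52 (adjusted p = 0.0933), and without unoperated replicate 1.

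**Figure D2:**
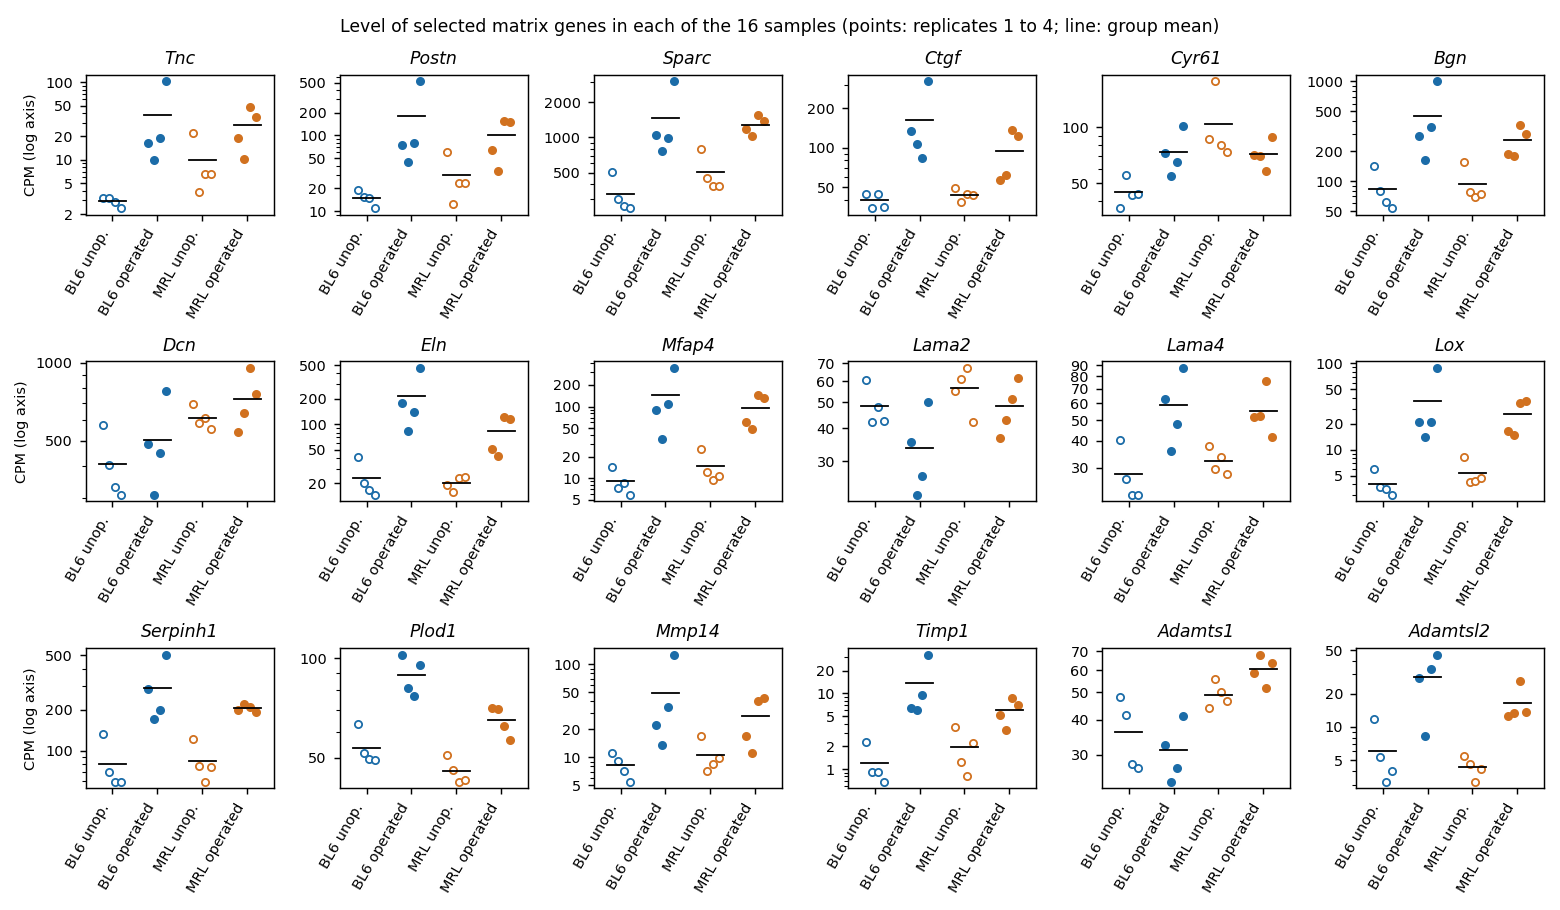
CPM on a log axis of 18 of the genes in each of the 16 samples, with open points for unoperated and filled points for operated samples, blue for BL6 and orange for MRL, and a line at each group mean. Operated BL6 replicate 4, the right-hand filled blue point, is the highest operated BL6 sample in every panel but Plod1.

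Of the 8 proteoglycans, 5 rose in BL6 (Bgn, Fmod, Prelp, Ogn and Hspg2) and 2 in MRL (Bgn and Hspg2), with group medians of 0.89 and 0.60. The share in BL6 was 62.5%, against 35.1% of all genes. In MRL it was 25%, near the 22.3% of all genes. Dcn, Lum and Vcan, which encode decorin, lumican and versican, were called in neither strain. Bgn, encoding biglycan, a small leucine-rich proteoglycan that binds collagen and growth factors (ENSMUSG00000031375, chromosome X, 73483602 to 73495933), was at 142, 79.03, 61.5 and 53.4 CPM in unoperated BL6 and 283, 164, 346 and 1012 CPM in operated BL6. Its MRL levels were 155, 76.8, 68.7 and 74.9 CPM unoperated and 189, 180.2, 361 and 296 CPM operated. All operated samples lay above all unoperated samples in each strain. The log2 fold changes were 2.42 (SE 0.50, edgeR adjusted p = 0.000651) and 1.45 (SE 0.48, edgeR adjusted p = 0.0244), the second of which was not called without unoperated MRL replicate 2, 3 or 4 or operated MRL replicate 3.

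Fmod, encoding fibromodulin, a regulator of collagen fibrils rich in tendon, was at 40.7, 36.9, 61.4 and 39.05 CPM in unoperated BL6 and 111, 138, 95.04 and 400.3 CPM in operated BL6. MRL levels were 152, 66.04, 60.8 and 44.4 CPM and 72.7, 104, 238 and 129 CPM. BL6 groups were separate, and in MRL unoperated replicate 1 exceeded 3 of the operated samples. Fmod rose by 2.06 (SE 0.49, edgeR adjusted p = 0.00191) in BL6, and its MRL value was 0.75 (SE 0.48, edgeR adjusted p = 0.204). The BL6 value was 1.36 (adjusted p = 0.00933) without operated replicate 4. In MRL, Fmod was called at 1.26 (adjusted p = 0.0422) without unoperated replicate 1. Ogn, encoding osteoglycin, was at 53.1, 32.8, 26.6 and 26.5 CPM in unoperated BL6 and 64.5, 40.2, 52.01 and 202 CPM in operated BL6, against 80.8, 48.3, 55.8 and 50.6 CPM and 76.1, 78.00, 160 and 121 CPM in MRL. Both strains overlapped between their groups. The changes were 1.37 (SE 0.43, edgeR adjusted p = 0.0112) in BL6 and 0.88 (SE 0.43, edgeR adjusted p = 0.1) in MRL, and without operated BL6 replicate 4 they were 0.58 (adjusted p = 0.0985) and 0.89 (adjusted p = 0.0164).

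Decorin, the most abundant small proteoglycan of many connective tissues, did not change by the test. Dcn was at 577, 404, 333 and 309 CPM in unoperated BL6 and 486, 309, 447 and 780.3 CPM in operated BL6, and at 694, 585, 611 and 553 CPM and 541, 639, 956 and 758 CPM in MRL. Operated and unoperated samples overlapped in both strains. Its log2 fold change was 0.32 (SE 0.26, edgeR adjusted p = 0.286) in BL6 and 0.24 (SE 0.26, edgeR adjusted p = 0.447) in MRL. Of the others, Hspg2, which encodes the basement membrane proteoglycan perlecan, changed by 0.61 (SE 0.17, edgeR adjusted p = 0.0059) in BL6 and 0.54 (SE 0.17, edgeR adjusted p = 0.021) in MRL. Prelp changed by 0.98 (SE 0.35, edgeR adjusted p = 0.0224) in BL6, a call that was lost without operated replicate 4, at 0.39 (adjusted p = 0.191).

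All 9 genes of elastic fibres rose in BL6 and 4 rose in MRL (Eln, Fbln1, Mfap2 and Mfap4), with group medians of 2.25 and 0.98. These shares were 100% and 44.4%, against 35.1% and 22.3% of all genes. Elastic fibres consist of an elastin core on a scaffold of fibrillin microfibrils. Mfap4, a microfibril-associated protein that binds elastin and collagen (ENSMUSG00000042436, chromosome 11, 61485431 to 61488900), was at 14.1, 7.40, 8.67 and 5.82 CPM in unoperated BL6 and 88.8, 35.5, 109 and 348 CPM in operated BL6. In MRL the levels were 25.8, 12.4, 9.45 and 10.9 CPM and 61.2, 48.97, 146 and 131 CPM. The lowest operated sample of each strain was still above the highest unoperated one. Mfap4 had the largest MRL log2 fold change of the 55 genes, at 2.73 (SE 0.59, edgeR adjusted p = 0.00327), and in BL6 it rose by 4.01 (SE 0.63, edgeR adjusted p = 8.78e-05). Leaving out operated BL6 replicate 4 gave 3.11 (adjusted p = 0.000143) in BL6.

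Eln, encoding elastin itself, was at 40.8, 20.4, 16.8 and 14.6 CPM in unoperated BL6 and 180.3, 82.5, 138 and 467 CPM in operated BL6. It was at 19.2, 15.8, 22.9 and 23.5 CPM in unoperated MRL and 50.5, 42.1, 123 and 116 CPM in operated MRL. Groups were separate in both strains, and operated MRL replicates 3 and 4 lay above replicates 1 and 2. Eln rose by 3.23 (SE 0.52, edgeR adjusted p = 0.000103) and 2.03 (SE 0.50, edgeR adjusted p = 0.00583). Mfap2 and Mfap5, encoding microfibril-associated glycoproteins, changed by 2.80 (SE 0.59, adjusted p = 0.000742) and 2.25 (SE 0.41, adjusted p = 0.000252) in BL6, and Fbln1, encoding fibulin 1, by 2.42 (SE 0.42, adjusted p = 0.000189), by edgeR. In MRL the values were 1.53 (SE 0.56, adjusted p = 0.0367), 0.98 (SE 0.39, adjusted p = 0.0544) and 1.57 (SE 0.41, adjusted p = 0.0078). Fbn1, encoding fibrillin 1, Fbln2, Fbln5 and Emilin1 rose in BL6 by 0.69 to 1.51 on the log2 scale and were not called in MRL. Without operated replicate 4 the BL6 value of Mfap2 was 1.87 (adjusted p = 0.00273), the calls of Fbn1 and Fbln2 were lost, at 0.51 (adjusted p = 0.278) and 0.46 (adjusted p = 0.0642), and those of Fbln5 and Emilin1 stood at 0.75 (adjusted p = 0.0383) and 0.62 (adjusted p = 0.0442). Fbln5, Emilin1 and Mfap5 were then called in MRL, at 0.79 (adjusted p = 0.0277), 0.94 (adjusted p = 0.00585) and 0.98 (adjusted p = 0.0164).

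Of 8 laminins and nidogens of the basement membrane, 5 rose in BL6 (Nid2, Lama4, Lama5, Lamb1 and Lamb2), with a group median of 0.51. In MRL 1 rose (Lama4), with a median of 0.36. The share in BL6 was 62.5%, against 35.1% of all genes. In MRL it was 12.5%, below the 22.3% of all genes. Nid1, Lama2 and Lamc1 were called in neither strain. Lama4 encodes the laminin alpha 4 chain of vessel basement membranes. It was at 40.4, 26.8, 22.4 and 22.5 CPM in unoperated BL6 and 62.5, 35.9, 48.04 and 87.5 CPM in operated BL6, and at 37.99, 29.8, 33.8 and 28.01 CPM and 51.4, 52.3, 75.8 and 41.96 CPM in MRL. The BL6 groups overlapped through unoperated replicate 1 and operated replicate 2, and the MRL groups did not overlap. The log2 fold changes were 1.06 (SE 0.26, edgeR adjusted p = 0.00212) and 0.77 (SE 0.26, edgeR adjusted p = 0.024), and the MRL call was lost without unoperated replicate 2 or 4 or operated replicate 3. Endothelial markers (5 of 5 counted) also moved with surgery, from a summed 268 to 368 CPM up to 548 to 695 CPM in BL6 and from 203 to 288 CPM up to 292 to 726 CPM in MRL. Their part in the Lama4 result was not tested.

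Nid2, encoding nidogen 2, which links laminin to collagen IV, was at 16.6, 13.5, 12.4 and 11.4 CPM in unoperated BL6 and 27.1, 13.6, 23.1 and 38.7 CPM in operated BL6. Lamb1, encoding a laminin beta chain, was at 49.1, 31.1, 24.7 and 25.2 CPM and 55.9, 30.3, 45.3 and 79.4 CPM in the same groups. For both genes operated replicate 2 lay within the unoperated range, as did operated replicate 3 for Lamb1. In MRL, Nid2 was at 20.9, 17.9, 22.1 and 16.1 CPM unoperated and 23.3, 26.4, 34.3 and 22.9 CPM operated, and Lamb1 at 34.7, 33.2, 34.5 and 31.4 CPM and 44.01, 42.5, 54.9 and 46.2 CPM. For both genes the MRL groups did not overlap. Even so, edgeR called neither gene in MRL, with log2 fold changes of 0.47 (SE 0.24, adjusted p = 0.111) for Nid2 and 0.49 (SE 0.25, adjusted p = 0.115) for Lamb1, against 0.93 (SE 0.24, adjusted p = 0.00315) and 0.70 (SE 0.25, adjusted p = 0.0203) in BL6. Nid2 was called in MRL without operated BL6 replicate 2. The Lamb1 call in BL6 was lost without operated replicate 4, at 0.43 (adjusted p = 0.105), and without unoperated replicate 3 or 4.

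Lama2 encodes the alpha chain of the main laminin around muscle fibres, the chain missing in a congenital muscular dystrophy. It was at 60.7, 42.01, 48.2 and 42.6 CPM in unoperated BL6 and 35.5, 22.4, 26.5 and 50.3 CPM in operated BL6. In MRL it was at 55.1, 61.3, 67.4 and 42.1 CPM and 36.9, 43.04, 51.6 and 61.6 CPM. It was 1 of 4 genes among the 55 with a negative log2 fold change in BL6, and operated replicate 4 lay above 3 of the unoperated samples. Its log2 fold change was -0.52 (SE 0.23, edgeR adjusted p = 0.0562) in BL6 and -0.23 (SE 0.23, edgeR adjusted p = 0.428) in MRL. It was called lower in BL6 once operated BL6 replicate 4 was left out, at -0.79 (adjusted p = 0.0053).

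Among 9 enzymes and helpers of collagen processing and crosslinking, 7 rose in BL6 (Lox, Loxl1, Loxl2, Serpinh1, Plod1, Plod2 and Pcolce), with a median of 1.28. In MRL 4 rose (Lox, Serpinh1, Plod1 and Plod2), with a median of 0.82. These shares were 77.8% and 44.4%, against 35.1% and 22.3% of all genes. P4ha1 and P4ha2, subunits of the prolyl hydroxylase that stabilises the collagen helix, were called in neither strain. Lox, encoding lysyl oxidase, which starts the crosslinks of collagen and elastin, was at 6.04, 3.73, 3.54 and 3.004 CPM in unoperated BL6 and 20.9, 13.98, 21.2 and 88.8 CPM in operated BL6. Lox was at 8.31, 4.27, 4.42 and 4.69 CPM and 16.4, 14.8, 35.1 and 36.7 CPM in MRL. Operated and unoperated samples were separate in both strains. Lox rose by 3.16 (SE 0.54, edgeR adjusted p = 0.000158) in BL6 and 2.25 (SE 0.52, edgeR adjusted p = 0.0043) in MRL. With operated BL6 replicate 4 left out the change was 2.20 (adjusted p = 0.000176) in BL6, close to the MRL value.

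Loxl1, a lysyl oxidase relative needed for elastic fibres, was at 19.02, 13.4, 11.9 and 10.2 CPM in unoperated BL6 and 35.9, 16.9, 40.6 and 133 CPM in operated BL6. It was at 24.9, 20.01, 14.3 and 16.2 CPM in unoperated MRL and 18.3, 20.01, 49.99 and 49.5 CPM in operated MRL. Operated BL6 replicate 2 and operated MRL replicates 1 and 2 lay within the unoperated range of their strain. The log2 fold changes were 2.06 (SE 0.51, edgeR adjusted p = 0.00249) and 0.87 (SE 0.50, edgeR adjusted p = 0.16). Leaving out operated BL6 replicate 4 gave 1.19 (adjusted p = 0.0134) in BL6 and 0.88 (adjusted p = 0.0499) in MRL. Serpinh1 encodes HSP47, the chaperone of procollagen in the endoplasmic reticulum. It was at 134, 69.8, 59.3 and 59.3 CPM in unoperated BL6 and 283, 172, 199 and 506 CPM in operated BL6, and at 121, 78.1, 59.6 and 76.4 CPM and 200.4, 222, 208 and 191 CPM in MRL. The groups were separate in both strains, and the 4 operated MRL samples lay close together. Serpinh1 rose by 1.85 (SE 0.34, edgeR adjusted p = 0.000256) and 1.29 (SE 0.33, edgeR adjusted p = 0.00723).

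Plod1 and Plod2 encode lysyl hydroxylases, and the Plod2 product hydroxylates the collagen telopeptides. Plod1 was at 63.1, 51.6, 49.5 and 49.4 CPM in unoperated BL6 and 103, 81.3, 76.7 and 95.1 CPM in operated BL6. The MRL samples had 50.9, 46.03, 42.3 and 42.9 CPM and 70.9, 70.1, 62.3 and 56.5 CPM. Surgery separated the groups in both strains, with a narrow spread. The log2 fold changes of Plod1 were 0.74 (SE 0.12, edgeR adjusted p = 0.000113) and 0.51 (SE 0.12, edgeR adjusted p = 0.00455), and those of Plod2 were 1.84 (SE 0.30, edgeR adjusted p = 0.000128) and 1.10 (SE 0.30, edgeR adjusted p = 0.00955). Pcolce, which enhances removal of the procollagen C-propeptide, and Loxl2 rose in BL6 by 1.16 and 1.28, and both calls were lost without operated replicate 4, at 0.67 (adjusted p = 0.0539) and 0.60 (adjusted p = 0.128). Loxl2 was then called in MRL, at 0.83 (adjusted p = 0.0361).

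The last group of 9 holds proteases and inhibitors together with Adamtsl2, whose product is neither. Of the 9, 4 rose in BL6 (Mmp2, Mmp14, Adamtsl2 and Timp1) and 2 in MRL (Adamtsl2 and Timp1), with medians of 0.98 and 0.59. The share in BL6 was 44.4%, against 35.1% of all genes. In MRL it was 22.2%, no more than the 22.3% of all genes. Adamts1, Adamts2, Adamts5, Timp2 and Timp3 were called in neither strain. Timp1, an inhibitor of metalloproteinases made by activated fibroblasts and inflammatory cells, was at 2.28, 0.909, 0.925 and 0.676 CPM in unoperated BL6 and 6.42, 6.04, 9.49 and 32.5 CPM in operated BL6. In MRL it was at 3.61, 1.23, 0.806 and 2.22 CPM and 5.16, 3.26, 8.59 and 7.03 CPM. The BL6 groups did not overlap, and in MRL unoperated replicate 1 lay above operated replicate 2. Timp1 rose by 3.52 (SE 0.62, edgeR adjusted p = 0.000206) in BL6 and 1.61 (SE 0.58, edgeR adjusted p = 0.0348) in MRL, and the MRL call was lost when any 1 of 6 MRL samples was left out (all but unoperated replicate 1 and operated replicate 2). The BL6 change was 2.61 (adjusted p = 0.000452) without operated replicate 4. Leukocyte markers, given above, were highest in the same samples as Timp1 in unoperated BL6, operated BL6 and unoperated MRL. In operated MRL Timp1 was highest in replicate 3 and these markers in replicate 4. In the first 3 groups those samples were highest for 48, 50 and 46 of the 55 genes, so the overlap was not particular to Timp1. The part of these markers was not tested.

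Mmp14, a membrane metalloproteinase that activates the product of Mmp2, was at 11.02, 9.19, 7.06 and 5.44 CPM in unoperated BL6 and 22.5, 13.6, 34.7 and 127 CPM in operated BL6. Its MRL levels were 17.00, 7.13, 8.48 and 9.89 CPM and 16.8, 11.2, 40.3 and 43.4 CPM. The BL6 groups did not overlap, while operated MRL replicates 1 and 2 were below unoperated replicate 1. The log2 fold change was 2.60 (SE 0.61, edgeR adjusted p = 0.00173) in BL6 and 1.40 (SE 0.59, edgeR adjusted p = 0.0644) in MRL. It was 1.53 (adjusted p = 0.00875) in BL6 and 1.41 (adjusted p = 0.0134) in MRL without operated BL6 replicate 4. Mmp14 was also called in MRL without unoperated MRL replicate 1, operated MRL replicate 2 or operated BL6 replicate 2. Mmp2, encoding a gelatinase, was at 77.5, 53.7, 43.6 and 35.96 CPM in unoperated BL6 and 88.6, 53.8, 84.2 and 268 CPM in operated BL6, against 99.04, 64.5, 61.99 and 62.2 CPM and 71.1, 76.1, 170.3 and 159.5 CPM in MRL. The groups overlapped in both strains. Its log2 fold changes were 1.23 (SE 0.43, edgeR adjusted p = 0.0204) and 0.73 (SE 0.43, edgeR adjusted p = 0.172), and the BL6 value was 0.52 (adjusted p = 0.184) without operated replicate 4. That call was also lost without unoperated BL6 replicate 3 or 4.

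Adamtsl2, an ADAMTS-like protein that lacks a catalytic domain and binds microfibrils (ENSMUSG00000036040, chromosome 2, 27079379 to 27108981), was at 11.7, 5.36, 3.17 and 4.005 CPM in unoperated BL6 and 27.9, 8.29, 33.4 and 45.4 CPM in operated BL6. In MRL it was at 5.41, 4.58, 3.19 and 4.17 CPM and 12.6, 13.5, 26.1 and 13.6 CPM. Operated BL6 replicate 2 lay under unoperated replicate 1, and the MRL groups were separate. Adamtsl2 rose by 2.25 (SE 0.46, edgeR adjusted p = 0.000626) in BL6 and 1.92 (SE 0.46, edgeR adjusted p = 0.00542) in MRL. Timp2, Timp3, Adamts2 and Adamts5 had log2 fold changes of 0.72, 0.25, 0.98 and 0.45 in BL6 and of 0.18, 0.15, 0.57 and 0.59 in MRL.

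**Figure D3:**
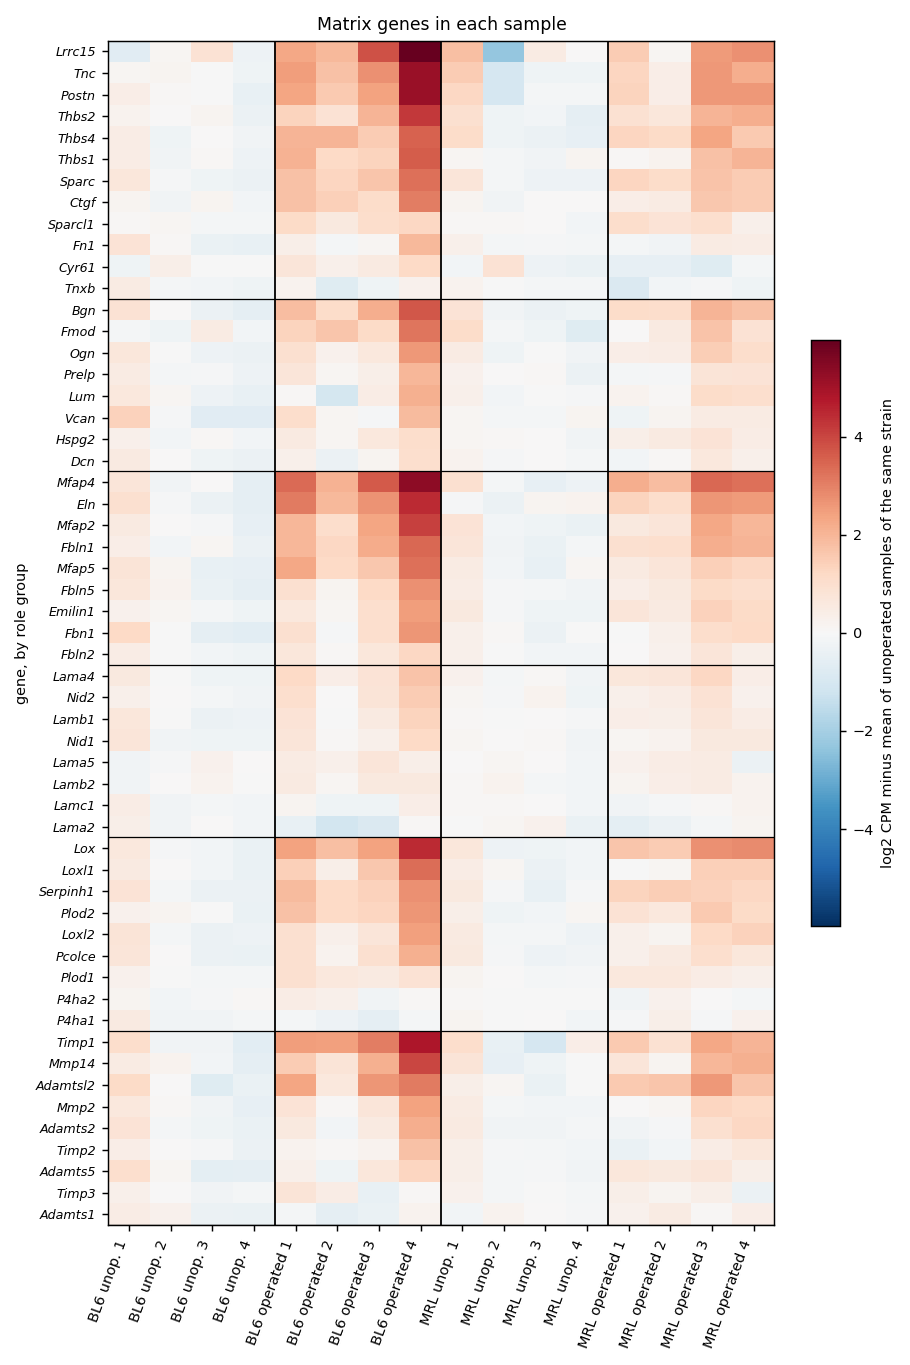
Log2 CPM of the 55 genes in the 16 samples, with genes by role and samples by group. Each gene is shown as its difference from its mean over the unoperated samples of the same strain, so differences between the unoperated strains are not shown. Operated BL6 replicate 4 is the most intense column, and Tnxb, Lama2, P4ha1 and Adamts1 are the 4 genes with a negative log2 fold change in BL6.

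Whether surgery changed the genes differently in MRL and BL6 was tested as the interaction of strain and surgery. None of the 55 genes was called (0.248% of all genes were, 0.154% higher and 0.0939% lower). By edgeR, 5 of the 55 had an unadjusted p under 0.05, as had 1842 of all 11709 genes tested. DESeq2 called 1 (Cyr61), where it called 2.14% of all genes, and limma voom 0, where it called 0.205%. The lowest adjusted p by edgeR was 0.153, for Cyr61, whose surgery effect in MRL minus that in BL6 was -1.26 (SE 0.37) on the log2 scale. The interaction was negative for 51 of the 55 genes, with a median of -0.54 against -0.01 over all genes. The size of the surgery effect was larger in BL6 for 52 of the 55 genes (94.5%), against 76.2% of all genes. These counts turned on 1 sample. Without operated BL6 replicate 4 the effect was larger in BL6 for 34 of the 55, the interaction was negative for 32 and its median was -0.08, with 0 called. Without that sample and unoperated MRL replicate 1 the median was 0.11, again with 0 called. The larger BL6 effects and the larger number of calls in BL6 are therefore not shown to be a difference between the strains.

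**Figure D4:**
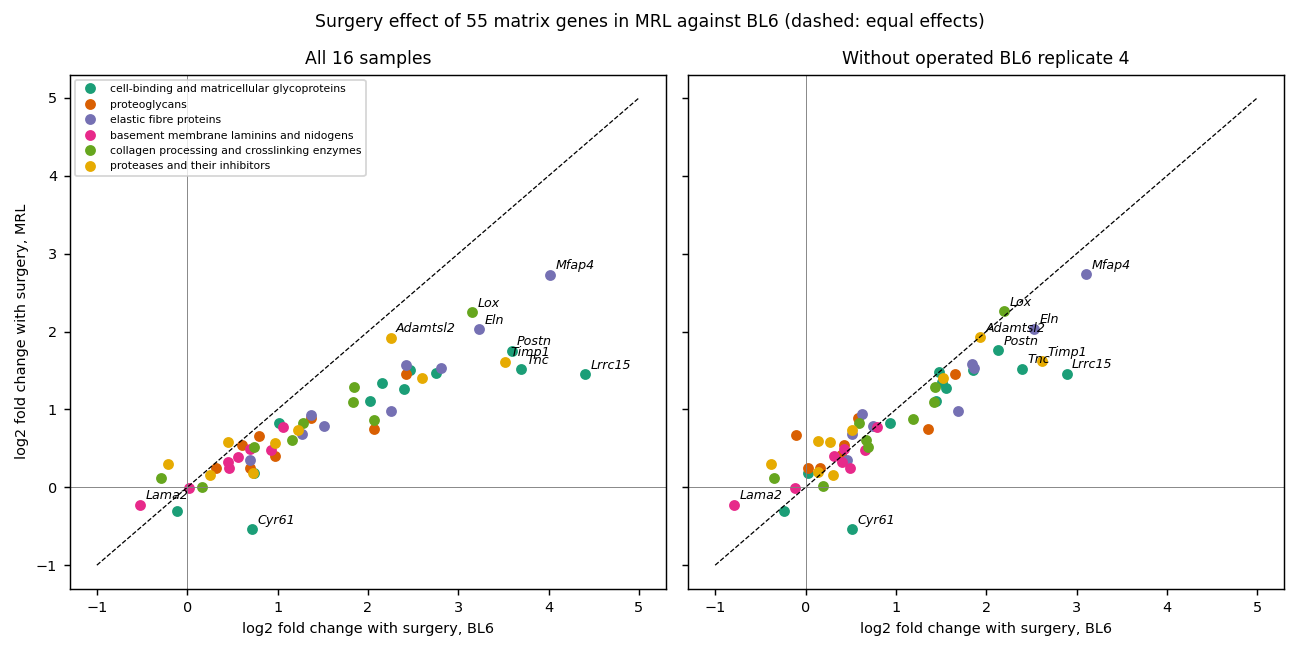
Log2 fold change of surgery in MRL (vertical axis) against that in BL6 (horizontal axis) for the 55 genes, with all 16 samples and without operated BL6 replicate 4, and a line of equal effects. With all samples the effect is larger in BL6 for 52 genes, and without that replicate for 34.

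The strains were then compared within each surgical state. In unoperated muscle 1 of the 55 genes differed (10.4% of all genes did, 5.02% being higher in MRL and 5.36% lower). It was Cyr61, higher in MRL by 1.23 (SE 0.26, edgeR adjusted p = 0.00565) on the log2 scale. In 6 of the 55 genes, Cyr61 included, every unoperated MRL sample lay above every unoperated BL6 sample (12.2% of all genes) and in 1, Hspg2, below (12.9% of all genes). The log2 difference of Cyr61 was 0.84 without unoperated MRL replicate 2 and was called with each sample left out in turn. The median over the 55 genes was 0.36, MRL over BL6, against 0.01 over all genes, and 46 of the 55 were positive. Without unoperated MRL replicate 1 that median was 0.13. The count of calls was 3 without unoperated BL6 replicate 1 (9.41% of all genes) and 3 without operated BL6 replicate 4 (13.1% of all genes), the latter being Cyr61, Tnc at 1.75 (adjusted p = 0.0401) and Lum at 1.15 (adjusted p = 0.0241). Lrrc15 and Tnc had the largest differences, at 1.94 (SE 0.95, edgeR adjusted p = 0.229) and 1.75 (SE 0.72, edgeR adjusted p = 0.147), and neither passed the test with all samples. In a fit on the 8 unoperated samples alone 9 genes were called, along with 20.8% of all genes.

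In operated muscle 2 of the 55 differed (12.9% of all genes did, 7.6% being higher in MRL and 5.27% lower). Adamts1, a secreted protease that cuts versican and aggrecan (ENSMUSG00000022893, chromosome 16, 85793827 to 85803113), was at 32.4, 23.98, 26.9 and 41.03 CPM in operated BL6 and 58.7, 68.1, 51.6 and 63.8 CPM in operated MRL. Its unoperated levels were 47.9, 41.6, 27.9 and 26.8 CPM in BL6 and 44.1, 55.97, 49.96 and 46.4 CPM in MRL. Every operated MRL sample lay above every operated BL6 sample (as for 7.41% of all genes), while the unoperated strains overlapped. The difference was 0.96 (SE 0.19, edgeR adjusted p = 0.00327) after surgery and 0.45 (SE 0.19, edgeR adjusted p = 0.163) without it. It was called with each sample left out in turn, at 0.86 to 1.13. Plod1 was lower in operated MRL than in operated BL6, at -0.45 (SE 0.12, edgeR adjusted p = 0.0197), with no overlap between the strains (6.16% of all genes lay lower in this way), and its call was lost without operated BL6 replicate 1 or operated MRL replicate 4 and under scaling by total counts. The median over the 55 genes was -0.30, and 42 of the 55 were lower in MRL. Without operated BL6 replicate 4 the median was 0.25 and 6 genes were called, where 13.8% of all genes were (7.78% higher in MRL): Dcn (0.81 (adjusted p = 0.0334)), Lum (1.92 (adjusted p = 0.002)), Ogn (1.06 (adjusted p = 0.0321)), Lama2 (0.78 (adjusted p = 0.0237)) and Adamts1 (1.13 (adjusted p = 0.000962)) higher in MRL, and Plod1 (-0.42 (adjusted p = 0.0399)) lower.

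Levels can be set side by side between genes only per length, so CPM were divided by the length of all exons of a gene in kilobases. Sparc had the highest level per kilobase of the 55 genes in all 4 groups, at 86.9 CPM per kilobase before and 387 after surgery in BL6 and at 133 and 339 in MRL. Dcn came second in both unoperated groups, at 69.5 and 105, and Sparcl1 was at rank 3 in them. Serpinh1 was second in operated BL6 and Sparcl1 second in operated MRL. Mfap4 moved from rank 29 of 55 to rank 5 in BL6 and from rank 24 to rank 5 in MRL. Lrrc15 was the lowest in both unoperated groups, at 0.134 and 0.521 CPM per kilobase. Neighbours in this order mostly did not differ beyond their spread: the sample ranges overlapped in 53 of 54 neighbouring pairs in unoperated BL6, in 54 after surgery, and in 51 in each MRL group.

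The wider matrix was followed in 6 further lists of 142 genes, also chosen with earlier results of these data known, of which 122 were tested. Of these, 77 rose and 13 fell in BL6, with a median log2 fold change of 0.97, and 36 rose and 7 fell in MRL, with a median of 0.57. Over all genes tested 35.1% rose and 32.8% fell in BL6, and 22.3% rose and 22.7% fell in MRL. In an alternative chosen after seeing the data, without operated BL6 replicate 4, 58 rose and 15 fell in BL6 (31.8% and 31.7% of all genes) and 56 rose and 8 fell in MRL (26.3% and 25% of all genes). None of the 122 was called in the interaction by edgeR, and 13 had an unadjusted p under 0.05 (1842 of all 11709 genes tested had). Among other matrix glycoproteins, Comp, a cartilage and tendon protein that binds collagen, was at 3.49 ± 1.02 CPM in unoperated BL6 and 68.1 ± 84.4 CPM in operated BL6 (SD, n = 4), a log2 change of 4.29 (SE 0.72, edgeR adjusted p = 0.000139). In MRL it changed by 2.04 (SE 0.65, edgeR adjusted p = 0.0209). Tnn, a tenascin of bone and tendon surfaces, rose by 4.78 (SE 1.34, edgeR adjusted p = 0.00547) in BL6, a call lost without operated replicate 4 at 2.55 (adjusted p = 0.0518), and its MRL value was 1.25 (SE 1.13, edgeR adjusted p = 0.373). Among proteoglycans, Acan, encoding the cartilage proteoglycan aggrecan, was at 0.0527 ± 0.0365 CPM in unoperated BL6 (SD, n = 4), a mean below the floor, and 2.83 ± 4.52 CPM in operated BL6. Acan is also 1 of the cartilage and bone markers that were highest in operated BL6 replicate 4. Chad, encoding chondroadherin, rose by 2.40 (SE 0.57, edgeR adjusted p = 0.00173) in BL6, with 1.56 (adjusted p = 0.00877) without operated replicate 4 and 1.31 (SE 0.55, edgeR adjusted p = 0.0639) in MRL, where it was called without that sample at 1.32 (adjusted p = 0.0216). Lamb3, encoding a laminin beta chain, did not pass the test, at -0.37 (SE 0.26, edgeR adjusted p = 0.212).

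P4ha3, another prolyl hydroxylase subunit, and Fkbp10, a procollagen chaperone, rose in BL6 by 3.99 (SE 1.01, edgeR adjusted p = 0.00283) and 1.93 (SE 0.47, edgeR adjusted p = 0.00206). They were not called in MRL, at 1.94 (SE 0.90, adjusted p = 0.0894) and 0.78 (SE 0.45, adjusted p = 0.166). The collagenase gene Mmp13 and the protease gene Adam12 rose in BL6 by 3.79 (SE 1.07, edgeR adjusted p = 0.00568) and 3.38 (SE 0.88, edgeR adjusted p = 0.00333), and were not called in MRL, at 0.89 (SE 0.95, adjusted p = 0.455) and 1.38 (SE 0.81, adjusted p = 0.167). Without operated BL6 replicate 4 the BL6 values of P4ha3, Fkbp10, Mmp13 and Adam12 were 1.95 (adjusted p = 0.0355), 1.06 (adjusted p = 0.00839), 2.14 (adjusted p = 0.0482) and 1.70 (adjusted p = 0.0352), and P4ha3 and Fkbp10 were then called in MRL, at 1.95 (adjusted p = 0.0162) and 0.78 (adjusted p = 0.0344). In operated BL6 the SD over the 4 samples exceeded the mean for P4ha3 (2.99 ± 4.53 CPM), Mmp13 (15.7 ± 21.8 CPM), Adam12 (5.46 ± 7.52 CPM) and Tnn (26.8 ± 42.6 CPM). Of 23 matrix receptors tested, 13 rose and 3 fell in BL6, where 35.1% of all genes rose and 32.8% fell. In MRL 9 rose and 3 fell, against 22.3% and 22.7% of all genes. Without operated replicate 4, 8 rose and 4 fell in BL6, against 31.8% and 31.7% of all genes. The rises in that fit were thus near the share of all genes. Itga10, a collagen-binding integrin chain, rose by 2.12 (SE 0.41, edgeR adjusted p = 0.000409) in BL6 and 1.41 (SE 0.41, edgeR adjusted p = 0.0126) in MRL, and Sdc1, encoding syndecan 1, by 2.08 (SE 0.43, edgeR adjusted p = 0.000726) and 1.21 (SE 0.43, edgeR adjusted p = 0.032).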

How the data were processed

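RNA of 16 samples in 4 groups of 4 was analysed from the deposited gene counts, whole numbers per gene and sample with no normalization, as read from the values. The authors used STAR, mm10, FastQC and edgeR per the submitters' processing notes, with no versions given. The counting program, the use of strand and the rule that kept 11710 genes are not given in the sources used here, so reads of overlapping or antisense genes may be shared. The authors also deposited a table with log2 fold changes and a p-value per gene and comparison, from which calls and log2 fold changes are cited as theirs.

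Counts were fitted with edgeR 4.0.16 in R 4.3.3 (TMM, filterByExpr with a minimum count of 10, which removed 1 gene, quasi-likelihood test, Benjamini-Hochberg adjustment over 11709 genes), with 1 mean per group and no covariate. The standard error is the log2 fold change divided by the square root of the F statistic. Log2 CPM used a prior count of 2. Alternatives used DESeq2 1.42.0 and limma 3.58.1 voom, other scalings and filters, the replicate number as a block, and samples left out. The fit was tested on simulated data. Exon lengths and gene positions come from GENCODE M21 (GRCm38, the assembly of mm10).

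The genes, role groups, marker lists and further matrix lists were chosen with earlier results of these data known. Values in every sample are given for the 2 genes per role group with the largest surgery effect in each strain, for each gene called between strains or in the interaction, and for Fn1, Tnc, Postn, Sparc, Dcn, Fmod, Lama2, Lox, Timp1, Mmp2, Mmp14, Ctgf and Cyr61. Of each further list, the 2 genes with the largest BL6 effect are named, except 1 that is not reported here. The marker lists and the further lists share 4 genes (Smoc2, Kera, Acan and Cspg4). Ranges of summed CPM of further marker lists, over all samples of unoperated BL6, operated BL6, unoperated MRL and operated MRL, were as follows. Fibroblast and fibro-adipogenic progenitor markers summed to 956 to 1930, 1320 to 2690, 1560 to 2030 and 1410 to 2470. Smooth muscle and pericyte markers summed to 461 to 535, 818 to 1360, 375 to 515 and 701 to 1260. Adipocyte markers (5 of 6 counted) summed to 221 to 307, 1290 to 2220, 271 to 394 and 1370 to 2000. Schwann cell markers summed to 53.6 to 70.8, 135 to 334, 38.4 to 83.4 and 63.4 to 228, and erythroid markers to 422 to 1720, 472 to 1030, 299 to 1790 and 721 to 5740. A floor of 3 counts covers counting error only.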

Additional observations from a re-analysis of the deposited data

Results flagged for a closer look

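Each of the 55 genes was examined in each of the 4 groups for a sample whose gap to its nearest neighbour, divided by the range of the group, was above Dixon's 95% critical value for 4 samples. Of 220 such gene and group pairs, 41 were above it. Chance alone flags about 1 in 20 where values are normally distributed. CPM were used here without a log, and every flag but that of Lamb2 was on the high side, so that rate may not apply. The genes are not independent of each other, since a sample that stands apart does so for many of them. Values are CPM.

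Operated BL6 replicate 4 was the high sample in 14 of them. These were Fn1 at 246 (the others 58.6 to 81), Tnc at 104 (the others 9.96 to 19.3), Postn at 526 (the others 44.1 to 78.7), Sparc at 3040 (the others 773 to 1050) and Thbs2 at 160 (the others 15.6 to 35). The same sample had Thbs4 at 490 (the others 121 to 176), Fmod at 400 (the others 95 to 138), Ogn at 202 (the others 40.2 to 64.5), Lox at 88.8 (the others 14 to 21.2) and Loxl2 at 54.3 (the others 12.4 to 19.3). It was also high for Mmp2 at 268 (the others 53.8 to 88.6), Adamts2 at 59.2 (the others 11.8 to 19.6), Timp1 at 32.5 (the others 6.04 to 9.49) and Timp2 at 283 (the others 89.7 to 99). Operated BL6 replicate 2 was the low sample for Lamb2 at 188 (the others 252 to 258).

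Unoperated MRL replicate 1 was the high sample in 13. It had Fn1 at 91.1 (the others 68.1 to 71.9), Tnc at 22.4 (the others 3.86 to 6.53), Sparc at 802 (the others 385 to 448), Thbs2 at 27.5 (the others 10 to 12.8) and Thbs4 at 110 (the others 37 to 43.2). That sample also had Bgn at 155 (the others 68.7 to 76.8), Fbln1 at 17.2 (the others 7.87 to 9.43), Mfap2 at 6.39 (the others 2.71 to 3.22), Lox at 8.31 (the others 4.27 to 4.69) and Loxl2 at 18.4 (the others 10.3 to 11.6). It further had Mmp2 at 99 (the others 62 to 64.5), Adamts2 at 24.4 (the others 14.6 to 15.7) and Timp2 at 156 (the others 111 to 117). Unoperated MRL replicate 2 was high for Cyr61 at 178 (the others 73.5 to 87), the gene that differed between the unoperated strains.

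Unoperated BL6 replicate 1 was the high sample in 10. These were Tnxb at 102 (the others 61 to 66), Vcan at 13.5 (the others 3.17 to 4.88), Nid1 at 120 (the others 60.5 to 63.8), Lamc1 at 140 (the others 87.6 to 94.5) and Loxl2 at 17.1 (the others 7.95 to 9.17). It was likewise high for Serpinh1 at 134 (the others 59.3 to 69.8), P4ha1 at 87.1 (the others 52.2 to 56.7), Plod1 at 63.1 (the others 49.4 to 51.7), Adamts2 at 23 (the others 9.96 to 12.1) and Timp1 at 2.28 (the others 0.677 to 0.925). Unoperated BL6 replicate 3 was high for Fmod at 61.4 (the others 36.9 to 40.7), and operated MRL replicate 3 for Adamtsl2 at 26.1 (the others 12.5 to 13.6). The leukocyte markers of the 3 samples named most often are given beside the first results, and their part in these values was not tested.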

How the results depend on the processing

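No called direction reversed under the alternatives run. The interaction has no value in fits on 2 groups. The number of the 55 genes called by edgeR was 40 for surgery in BL6, 17 for surgery in MRL, 0 for the interaction, 1 between the unoperated strains and 2 between the operated strains. With samples left out in turn these counts ranged from 32 to 45, from 10 to 28, from 0 to 0, from 1 to 3 and from 1 to 6. The share of all genes called in the same fits ranged from 61.4% to 69.8% for surgery in BL6 and from 29.8% to 52.5% in MRL. It ranged from 0.00854% to 0.589% for the interaction. Between the strains it ranged from 7.01% to 13.4% unoperated and from 8.8% to 15.7% operated. Without operated BL6 replicate 4 and unoperated MRL replicate 1 together, 32 genes were called for surgery in MRL (55% of all genes). In that fit 6 were called between the operated strains (14.1% of all genes). Fits on the compared groups alone called 32 for surgery in MRL (44.7% of all genes). They called 9 between the unoperated strains (20.8%) and 1 between the operated strains (4.91%). Scaling by total counts called 1 between the operated strains (Adamts1), where it called 11.8% of all genes. DESeq2 called 1 in the interaction (Cyr61), where it called 2.14% of all genes. All other settings kept these counts within 1.5 times. The cause of these shifts was not tested. With the replicate number as a block the counts were 38 (67.7% of all genes), 17 (44.4%), 0 (0.0171%), 1 (9.79%) and 2 (11.6%). The numbers were not taken to pair the samples, since the labels do not say that equal numbers belong together. Deviations of equally numbered samples correlated at -0.141 on average between the BL6 groups (0.0531 for different numbers) and 0.092 between the MRL groups (-0.0405). Between the strains they correlated at 0.16 in unoperated (-0.0463 for different numbers) and 0.165 in operated samples (-0.0443). With 4 samples a group, genes near the threshold changed sides: among the 26 genes chosen by the naming rule, over all settings, a call was lost 15 times in BL6 and 22 times in MRL, and gained 6 and 29 times. The named genes of the 55 lay above the floor of 3 counts in every sample.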
